A study of Mus musculus with 15 samples.

Results

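Interferon-stimulated genes are the genes that a cell turns on when it senses interferon, and 42 of them were followed here in mouse skeletal muscle. They were taken by gene symbol from a list of classical members, and 41 of the 42 had a mean of 10 or more normalized counts over the 15 samples and were kept, out of 15389 such genes among 55536 in the tables. The gene left out was Oas3, an oligoadenylate synthetase, which stood at 5, 7, 3, 5 and 29 normalized counts in the controls, at 1, 5, 8, 24 and 22 in the knockout and at 3, 5, 5, 6 and 2 in the D489V samples. Of the 41, 40 are protein-coding in the mouse annotation, and Mx2 is listed as a polymorphic pseudogene. The study profiled poly(A) RNA from skeletal muscle of male mice 2 months old in 3 groups of 5 samples. The controls were labelled wild type. The knockout lacked Pdgfrb, the platelet-derived growth factor receptor beta, in cells marked by myogenin, a transcription factor of differentiating muscle cells, and the other group carried Pdgfrb D489V, which the study's design calls constitutively active in the same cells. The labels name no muscle, strain, litter or batch, do not say whether the controls carried a Cre transgene, and do not say how the D489V allele was made. Samples are named here by group and replicate number, and p-values measure the spread between these samples only.

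Type I interferons bind the IFNAR1 and IFNAR2 receptor chains on the cell surface and activate the kinases JAK1 and TYK2. These phosphorylate STAT2, which enters the complex ISGF3 with IRF9. ISGF3 moves into the nucleus and binds interferon-stimulated response elements in the promoters of target genes. Products of the genes described here sense foreign nucleic acid, block viral translation and replication, and adjust the response itself. Many of these genes are also expressed at a low basal level in tissues with no infection.

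The response element is a sequence feature found in part of the members, so the promoters of some of them are shown. RefSeq promoter sequences (GRCm38.p6, 250 bases before to 50 bases after the start) were matched to 31 of the 41 members. The core of the element, GAAA followed by any 2 bases and GAAA again, read on both strands, occurred in 14 of these 31 promoters (45.2%) and in 1079 of 27025 genes with a promoter of the same length (3.99%). A looser form, GAAANNGAA, which every match of the core contains, occurred in 17 of 31 (54.8%) against 9.76% of all genes. The gamma-activated site TTCNNNGAA occurred in 5 of 31 (16.1%) against 9.55%. A match describes the letters in this window and is not a measurement of binding. The stretches below run 5′ to 3′ on the strand of the gene, end before the first transcribed base, and carry the matches to the core or its reverse complement in capitals. Isg15 (chr4:156200819-156201018, minus strand) has 3 overlapping matches, Bst2 (chr8:71537473-71537672, minus strand) 2 overlapping matches, and Ifit1 (chr19:34640744-34640870, plus strand) 2 separate ones. Ifit3 (chr19:34583329-34583528, plus strand) and Ifit3b (chr19:34607757-34607956, plus strand) are neighbouring copies, and their promoters were 86.2% identical over 218 bases at a shift of 32 bases. Rsad2 (chr12:26456453-26456652, minus strand) has 1 match. Oasl2 (chr5:114896734-114896933, plus strand) and Herc6 (chr6:57580792-57580991, plus strand) are shown because they are among the members that differed most between the knockout and D489V, and they hold no match in the window.
Isg15: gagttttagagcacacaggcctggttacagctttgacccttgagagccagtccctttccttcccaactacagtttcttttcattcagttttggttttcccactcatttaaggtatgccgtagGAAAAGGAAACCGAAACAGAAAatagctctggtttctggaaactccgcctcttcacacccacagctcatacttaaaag
Bst2: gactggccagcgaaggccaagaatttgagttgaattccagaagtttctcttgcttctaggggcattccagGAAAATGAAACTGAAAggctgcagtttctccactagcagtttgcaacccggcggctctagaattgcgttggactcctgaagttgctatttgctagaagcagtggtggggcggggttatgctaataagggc
Ifit1: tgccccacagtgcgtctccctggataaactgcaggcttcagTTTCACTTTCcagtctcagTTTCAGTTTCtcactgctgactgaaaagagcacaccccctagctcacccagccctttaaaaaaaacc
Ifit3: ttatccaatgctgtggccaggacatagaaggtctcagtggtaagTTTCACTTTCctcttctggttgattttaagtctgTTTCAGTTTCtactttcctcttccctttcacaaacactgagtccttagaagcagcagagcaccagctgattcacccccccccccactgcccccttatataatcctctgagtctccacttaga
Ifit3b: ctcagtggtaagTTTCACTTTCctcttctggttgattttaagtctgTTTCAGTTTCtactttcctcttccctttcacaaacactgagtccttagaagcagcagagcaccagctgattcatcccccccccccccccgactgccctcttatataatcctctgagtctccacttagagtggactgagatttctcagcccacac
Rsad2: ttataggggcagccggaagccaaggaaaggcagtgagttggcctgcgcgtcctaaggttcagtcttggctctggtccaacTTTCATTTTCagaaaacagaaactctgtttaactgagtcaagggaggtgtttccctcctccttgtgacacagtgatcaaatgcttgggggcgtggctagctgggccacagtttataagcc
Oasl2: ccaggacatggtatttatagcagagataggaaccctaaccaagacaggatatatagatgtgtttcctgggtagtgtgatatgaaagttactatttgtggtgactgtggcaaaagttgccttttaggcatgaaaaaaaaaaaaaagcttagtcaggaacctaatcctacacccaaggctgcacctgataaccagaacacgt
Herc6: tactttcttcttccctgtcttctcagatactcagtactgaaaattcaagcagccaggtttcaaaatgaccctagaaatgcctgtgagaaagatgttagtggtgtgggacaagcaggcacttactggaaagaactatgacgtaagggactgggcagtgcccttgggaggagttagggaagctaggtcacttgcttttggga

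Each sample's normalized counts summed to between 29815559 and 36489777. Pdgfrb stood at 1848, 1673, 1720, 1716 and 1811 in the controls, at 1475, 1628, 1138, 1339 and 958 in the knockout and at 820, 828, 1062, 849 and 970 in D489V, so all samples of both mutant groups lay below all controls. The difference was -0.45 (limma adjusted p = 0.294) in the knockout and -0.96 (limma adjusted p = 0.00168) in D489V on the log2 scale. All 12 skeletal muscle fibre markers were measured, with sums of 6699056 to 9461891 per sample. Knockout replicate 3, labelled male, had 3165 normalized counts of Xist and 367 of the Y-linked Ddx3y, where the other samples had 0 to 101 and 1437 to 3887, so results are also given without it. Control replicate 5 and knockout replicates 3, 4 and 5 stood apart in lymphocyte markers. The sum of 7 B cell markers was 6090 in control replicate 5 and 1827, 6046 and 1599 in those knockout replicates, against 29 to 292 in the other 11 samples, and the sum of 5 lymph node venule markers was 332, 494, 541 and 196 against 0 to 38, with Ccl21a at 0 in all samples.

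The members varied widely among the controls. Control replicate 1 was the highest of the 5 controls in 28 of the 41 members (68.3%, against 26.8% of all genes with a mean of 10 or more), and control replicate 4 was the lowest in 35 (85.4%, against 22.0%). Control replicate 1 exceeded control replicate 4 in 40 of 41 members, with a median ratio of 2.52. The median SD of a member on the log2 scale was 0.56 in the controls, where all 11815 genes in the same range of levels had 0.26. In the knockout it was 0.32 against 0.23, and in D489V 0.29 against 0.22. The widest ratio of highest to lowest control belonged to Mx1, a dynamin-like GTPase that blocks influenza virus, at 11.1. It was 8.88 for Zbp1, 5.00 for Xaf1, 4.67 for Herc6 and 4.51 for Ifit3. Over all 15 samples, control replicate 1 was the highest in 27 members (65.9%, against 10.8% of all genes). Control replicate 5 was the highest in 7 (17.1%, against 9.02%), namely Usp18, Mx1, Trim30a, Zbp1, Samd9l, Sp100 and Helz2.

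**Figure D1:**
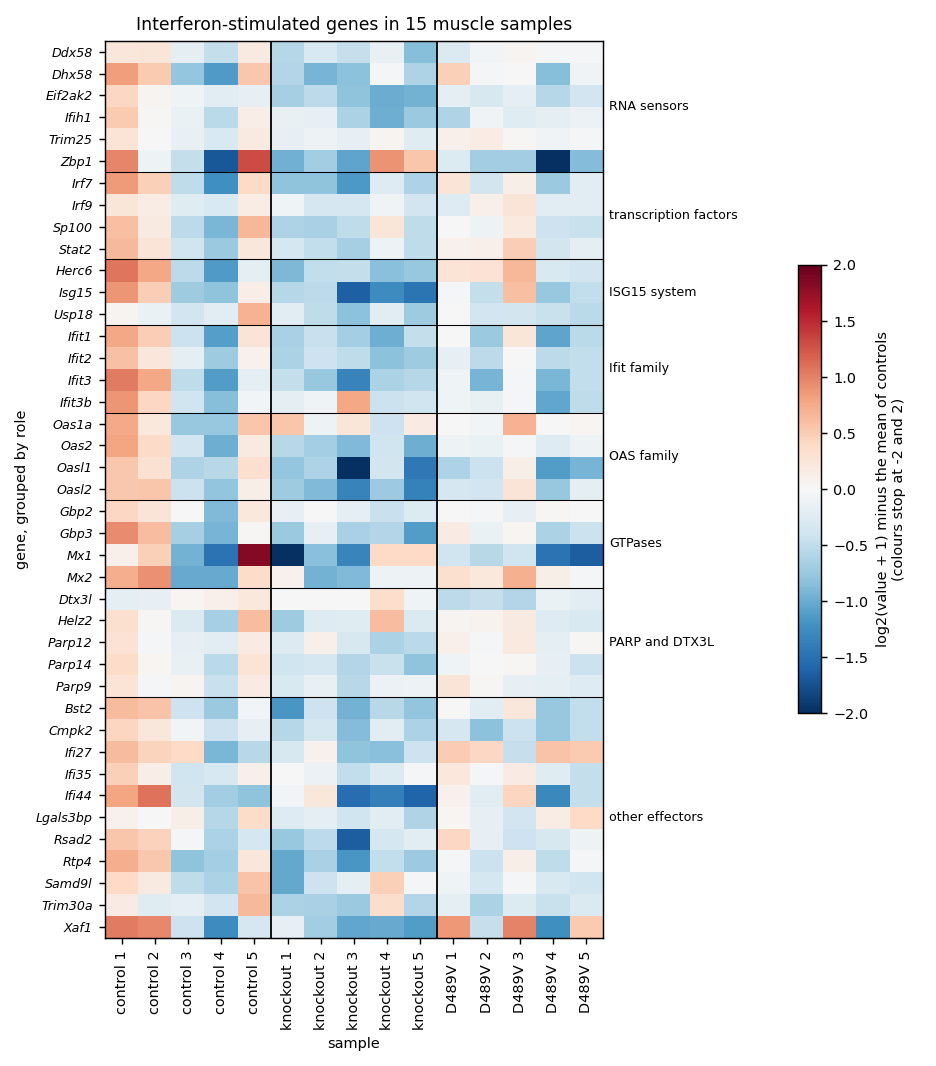
Log2 deviation of each of the 41 interferon-stimulated genes from its mean in the controls (colour, log2 of the normalized count plus 1), with members in lines by role and the 15 samples in columns by group. Control replicates 1 and 2 are mostly above the control mean, control replicates 3 and 4 mostly below it, and nearly all members of the knockout samples are below it.

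**Figure D2:**
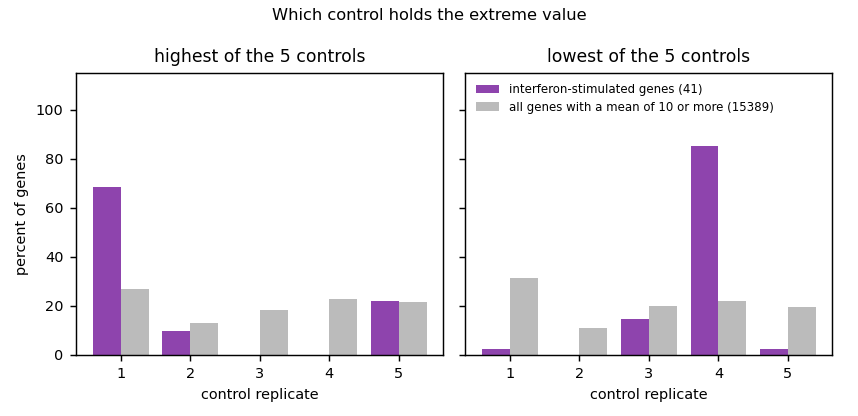
Percent of the 41 members (purple bars) and of all 15389 genes with a mean of 10 or more (grey bars) for which each control sample was the highest or the lowest of the 5 controls. Control replicate 1 was highest for 68.3% of the members and control replicate 4 lowest for 85.4%.

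The mean over the 41 members of the log2 deviation from the control mean gives 1 value per sample. It was 0.55, 0.31, -0.36, -0.73 and 0.22 in control replicates 1 to 5. It was -0.50, -0.41, -0.73, -0.34 and -0.57 in the knockout and -0.01, -0.22, 0.05, -0.50 and -0.29 in D489V. Of the knockout samples, 4 lay in the lower part of the range of the controls and replicate 3 lay marginally below it, and the D489V samples lay inside that range. The mean was -0.51 ± 0.15 (SD, n = 5) in the knockout and -0.20 ± 0.22 (SD, n = 5) in D489V, and the SD of the controls around 0 was 0.53. By single genes, 40, 34, 5, 1 and 31 of the 41 members were above their control mean in control replicates 1 to 5. In the knockout these counts were 2, 4, 3, 8 and 3, and in D489V 20, 8, 23, 4 and 5. The group means fell in the order control, D489V, knockout in 28 of 41 members (68.3%, against 12.3% of all genes), and Dtx3l alone was highest in the knockout, a position held by 42.4% of all genes. The members moved together from sample to sample, so this count and those below are not counts of independent genes. Control replicate 2, for example, exceeded control replicate 4, of the same label, in 40 of 41 members.

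**Figure D3:**
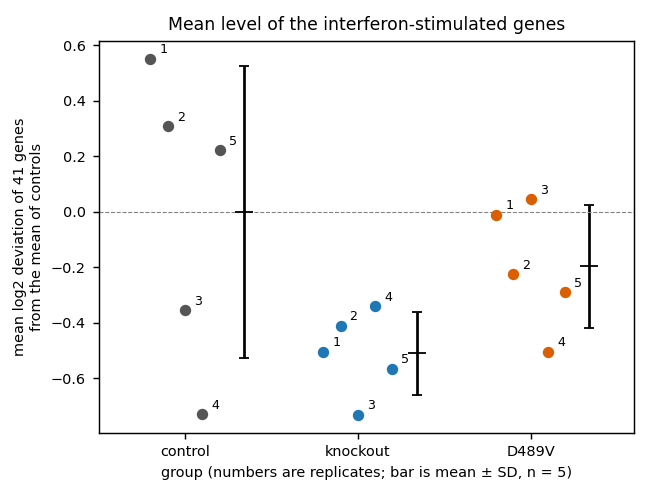
Mean log2 deviation from the control mean over the 41 members for each of the 15 samples (points), with the group mean and SD (n = 5). The controls span -0.73 to 0.55, the knockout samples -0.73 to -0.34 and the D489V samples -0.50 to 0.05.

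Against the controls, the knockout had lower values in 39 of 41 members (95.1%, against 48.5% of all genes tested), but no member passed the test. The median log2 difference was -0.52 for the members and 0.01 for all genes, and the members ranged from -1.09 for Isg15 to 0.09 for Oas1a. The limma test called 0 of 41 members at an adjusted p under 0.05, as it called 0.00656% of the 15234 genes tested, and the lowest adjusted p was 0.170, for Eif2ak2. At an unadjusted p under 0.05, 14 members were lower (34.1%, against 7.42% of all genes) and 0 higher (against 7.65%). The median was -0.46 without knockout replicate 3 and -0.46 without the 4 samples high in lymphocyte markers. In bulk RNA, fewer cells of a type and less RNA per cell cannot be told apart.

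D489V differed less from the same controls. Of 41 members, 32 had lower values (78.0%, against 49.6% of all genes), with a median log2 difference of -0.18 against 0.0019 and a range from -0.92 for Zbp1 to 0.31 for Ifi27. The limma test called 0 members, against 0.0587% of 15339 genes tested, and the lowest adjusted p was 0.291. At an unadjusted p under 0.05, 3 members were lower (Cmpk2, Dtx3l and Eif2ak2) and 0 higher, which is 7.32% lower against 4.06% of all genes, with 5.37% of all genes higher. For 0 members did the groups not overlap, against 2.16% of all genes. The number below 0 was 22 without control replicate 1 and 39 without control replicate 4. The median rested on single samples. Leaving out control replicate 1, 2, 3, 4 or 5 gave -0.0062, -0.07, -0.29, -0.38 and -0.10, and leaving out D489V replicate 4 gave -0.09. The comparisons of the mutant groups with the controls share the same 5 control samples.

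Compared directly, the knockout was below D489V in 35 of 41 members (85.4%, against 49.9% of all genes), with a median log2 difference of -0.34 against 4e-04 for all genes. Within D489V, replicate 3 exceeded replicate 4 in as many members, 35 of 41. The limma test called 8 members, 7 lower in the knockout (Oas2, Herc6, Eif2ak2, Oasl2, Rtp4, Ifi27 and Parp14) and 1 higher (Dtx3l). That is 19.5% of the members, while 20.8% of the 15299 genes tested were called, so the number of calls was no larger than in the table as a whole. By direction, 17.1% of the members were called lower against 10.3% of all genes, and 2.44% higher against 10.5%. At an unadjusted p under 0.05, 18 members were lower (43.9%, against 18.3% of all genes) and 1 higher (2.44%, against 19.4%). The groups did not overlap in 7.32% of the members (2 lower and 1 higher in the knockout), fewer than the 13.9% of all genes. The 8 calls became 4 without knockout replicate 3 or 5, 0, 2 and 3 without D489V replicate 1, 2 or 3, and 14 without D489V replicate 4. These counts are given without the share of all genes called under each setting. They therefore do not show whether the members changed apart from the table as a whole. No call was left without knockout replicates 3 to 5, the samples of these groups high in lymphocyte markers, where the median was -0.25. That fit kept only knockout replicates 1 and 2, so this loss of calls cannot be told apart from the loss of samples. Without knockout replicates 3 to 5, the differences of Eif2ak2, Parp14 and Ifi27 were -0.27, -0.24 and -0.42, and those of Xaf1 and Zbp1 were -0.57 and 0.09.

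**Figure D4:**
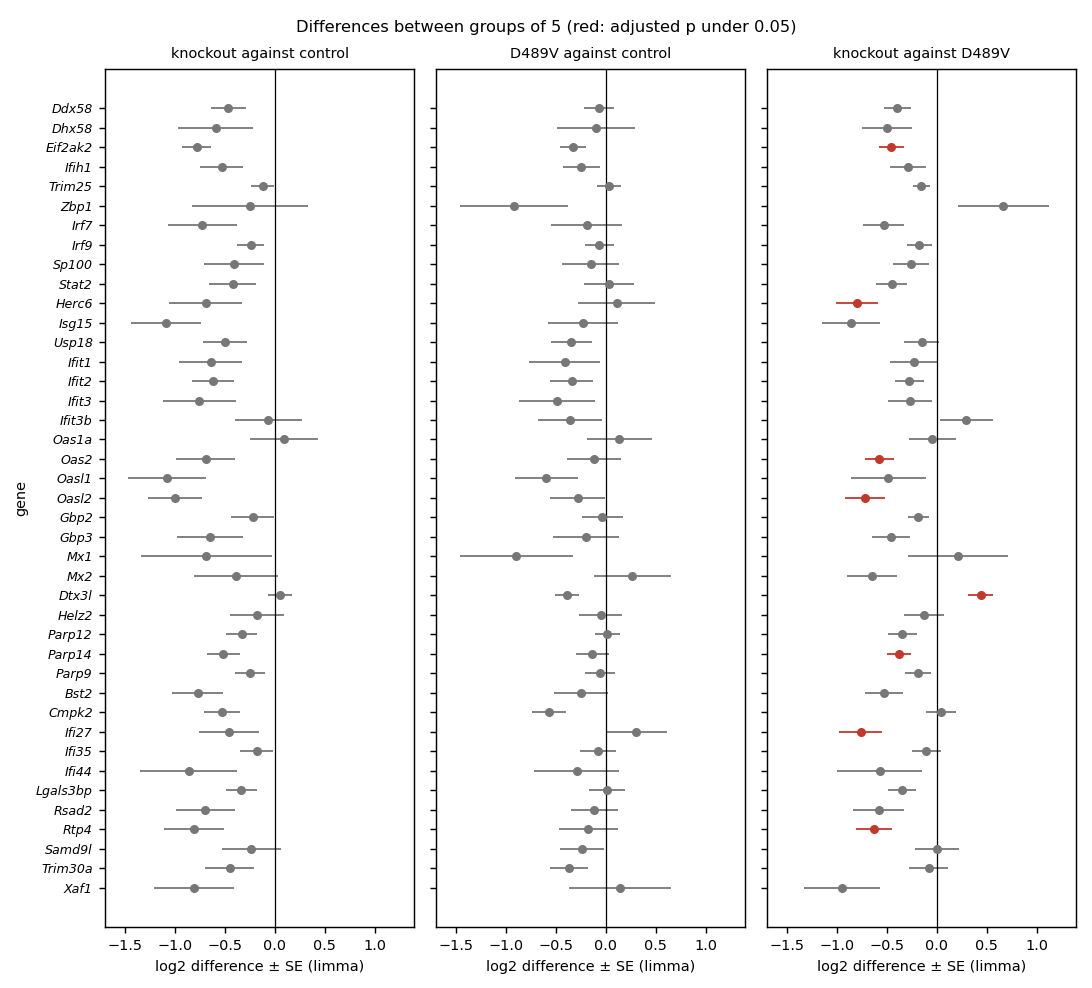
Log2 difference of each of the 41 members (points) with its standard error (bars) in the 3 comparisons, grouped by role, with members called at an adjusted p under 0.05 marked. Most points lie below 0 in the knockout against the controls and against D489V, and the 8 called members are all in the comparison of knockout with D489V.

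Among the 6 sensors of foreign RNA and their partners, all 6 were below the controls in the knockout, with a median log2 difference of -0.50, 3 of them at an unadjusted p under 0.05 and 0 called. For this role and those below, 7.42% of all genes were lower at that unadjusted level. Eif2ak2 (chr17:78852564-78882573) encodes PKR, the kinase that stops translation when it binds double-stranded RNA. Its normalized counts were 511, 396, 362, 330 and 341 in the controls, 241, 266, 219, 193 and 198 in the knockout, and 336, 308, 335, 258 and 293 in D489V. All knockout samples lay below all controls, the only member for which these groups did not overlap, where 2.24% of all genes did not overlap and 1.25% did so with the knockout lower. The log2 difference was -0.79 ± 0.14 (SE; limma adjusted p = 0.170), and it was called only with all 15 samples in 1 fit (limma adjusted p = 0.0319). Against D489V it was -0.46 ± 0.12 (limma adjusted p = 0.0241), with 1 knockout sample above the lowest D489V sample. That call was lost without knockout replicate 4 or 5 and without D489V replicate 1, 2 or 3. Its RefSeq promoter holds GAAAACGAAA from 19 to 28 bases after the start.

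Zbp1, a sensor of left-handed Z-form nucleic acid that can start necroptosis, stood at 56, 26, 20, 8 and 71 in the controls, at 14, 17, 13, 53 and 42 in the knockout and at 23, 17, 17, 6 and 15 in D489V. Its high samples were control replicates 1 and 5 and knockout replicates 4 and 5, and all groups overlapped. The difference of D489V from the controls was -0.92 ± 0.54 (limma adjusted p = 0.636), the lowest of the members, and -0.59 without control replicate 5. That of the knockout from D489V was 0.67 ± 0.45 (limma adjusted p = 0.303), the highest, and 0.38 without knockout replicate 4 or D489V replicate 4. Trim25, the ubiquitin ligase that helps to activate RIG-I, was the most abundant of the group, at 741, 607, 550, 494 and 692 in the controls, 543, 568, 545, 634 and 518 in the knockout and 653, 677, 623, 580 and 591 in D489V. These values overlapped in all groups, and the knockout minus control difference was -0.12 ± 0.12 (limma adjusted p = 0.609). Ddx58 and Ifih1, which encode the RNA helicases RIG-I and MDA5, had knockout minus control differences of -0.47 and -0.53 (limma adjusted p = 0.308 and 0.312).

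The oligoadenylate synthetases make the second messenger that activates RNase L, and the Oasl proteins are relatives that bind RNA or ubiquitin-like partners. Of the 4 members above the mean minimum, 3 were lower in the knockout than in the controls at an unadjusted p under 0.05, 0 were called, and the median difference was -0.85. Oas2 (chr5:120730333-120749853) stood at 198, 150, 88, 58 and 130 in the controls, at 78, 71, 62, 87 and 58 in the knockout and at 107, 105, 113, 96 and 107 in D489V. The 5 D489V samples were close together and all above the knockout, while the controls spanned both groups. The knockout minus D489V difference was -0.58 ± 0.15 (limma adjusted p = 0.0200), and 13.9% of all genes did not overlap between these groups (7.22% with the knockout higher, 6.7% with it lower). It was the only member that kept its call with the lymphocyte marker level as a covariate, and it lost it without D489V replicate 1.

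Oasl2 (chr5:114896936-114912234) stood at 319, 322, 161, 126 and 237 in the controls, at 133, 118, 86, 131 and 85 in the knockout and at 173, 167, 262, 129 and 190 in D489V. Only control replicate 4 and D489V replicate 4 fell into the range of the knockout. The knockout differed by -1.001 ± 0.27 from the controls (limma adjusted p = 0.276) and by -0.72 ± 0.20 from D489V (limma adjusted p = 0.0281), the latter not called without knockout replicate 3 or 5 or D489V replicate 1, 2 or 3. Oasl1, which can restrain translation of Irf7, was low throughout, at 46, 39, 20, 21 and 40 in the controls, 18, 20, 6, 24 and 11 in the knockout and 20, 23, 34, 14 and 16 in D489V. Its differences from the controls were -1.08 ± 0.39 in the knockout (limma adjusted p = 0.305) and -0.60 ± 0.32 in D489V (limma adjusted p = 0.602), with overlap in both, and the former was -0.61 without the 4 samples high in lymphocyte markers. Oas1a, at 53, 36, 18, 18 and 46 in the controls, 46, 29, 37, 23 and 35 in the knockout and 31, 30, 51, 31 and 32 in D489V, had a knockout minus control difference of 0.09 ± 0.34 (limma adjusted p = 0.907). Its reads are uncertain, since 40.9% of the 100-base windows of its longest transcript also occur in another gene, chiefly Oas1g, and its direction turned to -0.10 without control replicate 3 or 4 and to -0.03 without knockout replicate 1.

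The Ifit proteins bind viral RNA that lacks host cap marks. All 4 members had knockout minus control differences below 0, with a median of -0.63, 1 of them at an unadjusted p under 0.05 and 0 called. Ifit2, the most abundant, stood at 363, 283, 213, 147 and 256 in the controls, at 155, 182, 169, 137 and 147 in the knockout and at 216, 167, 243, 167 and 171 in D489V. The knockout samples reached only the lowest control, replicate 4, and the difference was -0.62 ± 0.21 (limma adjusted p = 0.305). Ifit3 and Ifit3b cannot be separated with certainty, since 31.7% and 27.4% of their 100-base windows are shared. Ifit3b stood at 136, 98, 55, 40 and 70 in the controls, at 64, 69, 125, 54 and 55 in the knockout and at 69, 66, 71, 35 and 51 in D489V. Its knockout minus D489V difference was 0.30 ± 0.27 (limma adjusted p = 0.437), and 0.09 without knockout replicate 3 and 0.13 without D489V replicate 4. Ifit3 exceeded Ifit3b in 14 of the 15 samples, and the exception was knockout replicate 3, with 92 and 125.

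The transcription factors among the members, which carry and amplify the signal, were Stat2, Irf9 and Irf7, and Sp100, a component of nuclear bodies, was counted with them. All 4 were below the controls in the knockout, with a median difference of -0.42, none at an unadjusted p under 0.05. Sp100, the most abundant, stood at 1071, 799, 490, 373 and 1125 in the controls, at 458, 448, 497, 832 and 498 in the knockout and at 708, 658, 812, 529 and 519 in D489V. Knockout replicate 4 stood above its group, control replicates 1 and 5 were highest of all, and the knockout minus control difference was -0.41 ± 0.30 (limma adjusted p = 0.496). The knockout minus D489V difference was -0.45 ± 0.16 for Stat2 (limma adjusted p = 0.0584) and -0.53 ± 0.20 for Irf7 (limma adjusted p = 0.0792).

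Isg15 encodes a small ubiquitin-like protein that is attached to other proteins, Herc6 the main ligase for this step in the mouse, and Usp18 the protease that removes it and also restrains the receptor. Isg15 (chr4:156199424-156200818) stood at 227, 173, 75, 70 and 135 in the controls, at 82, 85, 39, 51 and 44 in the knockout and at 121, 88, 186, 72 and 87 in D489V. The knockout and the control samples overlapped only through control replicates 3 and 4. The difference, -1.09 ± 0.35 (limma adjusted p = 0.302), was the lowest of the 41, and that from D489V was -0.86 ± 0.29 (limma adjusted p = 0.0548). They were -0.52 and -0.32 without the 4 samples high in lymphocyte markers. Herc6 (chr6:57581000-57664632) stood at 182, 149, 60, 39 and 76 in the controls, at 46, 61, 62, 48 and 51 in the knockout and at 105, 106, 138, 70 and 66 in D489V. All D489V samples were above all knockout samples, by a narrow margin in D489V replicate 5, and the controls spread over both ranges. Of all genes, 6.7% were separated in this way with the knockout lower. The knockout minus D489V difference was -0.80 ± 0.21 (limma adjusted p = 0.0239), lost without D489V replicate 1, 2 or 3. Of the 100-base windows of Herc6, 20.9% also occur in another annotated gene, so its level is uncertain to that extent.

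The next 4 members, Mx1, Mx2, Gbp2 and Gbp3, belong to GTPase families whose proteins can form assemblies that block viruses or other microbes. Mx2 is the member annotated as a polymorphic pseudogene. All 4 had knockout minus control differences below 0 (median -0.52), 0 at an unadjusted p under 0.05. Mx1 stood at 26, 34, 12, 8 and 89 in the controls, at 5, 13, 9, 32 and 32 in the knockout and at 18, 16, 18, 8 and 7 in D489V. Its highest sample was control replicate 5, and the D489V minus control difference was -0.90 ± 0.57 (limma adjusted p = 0.658), and -0.44 without control replicate 5. Mx2 stood at 72, 82, 21, 21 and 56 in the controls, at 46, 22, 23, 40 and 40 in the knockout and at 54, 50, 71, 47 and 42 in D489V. The D489V samples spanned 42 to 71, inside the range of the controls, and their difference from the controls was 0.26 ± 0.39 (limma adjusted p = 0.865). It was 0.0127 without control replicate 3 or 4, 0.15 without D489V replicate 3, and 0.45 and 0.49 without control replicate 1 or 2. Gbp3, the most abundant, stood at 630, 498, 204, 171 and 331 in the controls, at 194, 289, 208, 216 and 149 in the knockout and at 364, 298, 334, 210 and 241 in D489V. The 2 highest controls lay above all other samples, and the knockout minus control difference was -0.65 ± 0.33 (limma adjusted p = 0.359).

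The next 5 members, Parp9, Parp12, Parp14, Dtx3l and Helz2, encode ADP-ribosyl transferases, a ubiquitin ligase that works with PARP9, and a helicase. Parp14 (chr16:35832874-35871544) stood at 588, 471, 412, 315 and 552 in the controls, at 345, 358, 305, 336 and 261 in the knockout and at 431, 453, 463, 407 and 338 in D489V. Control replicate 4 and D489V replicate 5 alone reached into the range of the knockout, and all D489V samples lay inside the range of the controls. Its knockout minus D489V difference of -0.38 ± 0.12 (limma adjusted p = 0.0418) was called without knockout replicate 2 or D489V replicate 5, and not without any other single sample. Dtx3l (chr16:35926511-35939151) stood at 286, 289, 334, 347 and 376 in the controls, at 322, 325, 328, 413 and 305 in the knockout and at 225, 235, 215, 295 and 278 in D489V. All knockout samples were above all D489V samples, as in 7.22% of all genes, and its mean was highest in the knockout, as in no other member. The difference was 0.44 ± 0.12 (limma adjusted p = 0.0284), lost without knockout replicate 4 or D489V replicate 1, 2 or 3, while the knockout differed from the controls by 0.05 ± 0.12 (limma adjusted p = 0.839), and by -0.021 without knockout replicate 4.

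Dtx3l and Parp9 (chr16:35938470-35972605) lie head to head on opposite strands and overlap. The labels describe a directional library, but the strand setting used in counting is not given in the sources used here, so reads in the overlap may be shared. Parp9 had a knockout minus D489V difference of -0.19 ± 0.13 (limma adjusted p = 0.301), on the other side of 0 from Dtx3l. Helz2, the most abundant of these genes, stood at 623, 510, 408, 315 and 771 in the controls, at 306, 418, 422, 766 and 410 in the knockout and at 522, 524, 570, 419 and 404 in D489V. Control replicate 5 and knockout replicate 4 were the highest samples, both among the 4 high in lymphocyte markers, and the knockout minus control difference was -0.18 ± 0.27 (limma adjusted p = 0.749).

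The remaining 11 members act at many steps, from viral budding to cell death, and all 11 had knockout minus control differences below 0 (median -0.53), 4 of them at an unadjusted p under 0.05. Ifi27 (chr12:103434211-103440239), a small membrane protein of mitochondria and nuclear envelope, was the most abundant member of all. It stood at 2932, 2564, 2475, 996 and 1280 in the controls, at 1510, 1999, 1076, 1056 and 1412 in the knockout and at 2667, 2508, 1361, 2783 and 2705 in D489V. D489V replicate 3 alone fell into the range of the knockout, and the controls split into 3 high and 2 low samples. The knockout minus D489V difference was -0.76 ± 0.22 (limma adjusted p = 0.0300), and D489V minus control was 0.31 ± 0.31 (limma adjusted p = 0.795). The latter was 0.08 and 0.17 without control replicate 4 or 5, and 0.47 and 0.50 without control replicate 1 or D489V replicate 3. The call was lost without knockout replicate 3, 4 or 5 and without D489V replicate 1, 2 or 5.

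Rtp4 (chr16:23520291-23614222), a chaperone of receptors that also restrains some RNA viruses, stood at 245, 214, 84, 92 and 172 in the controls, at 72, 94, 65, 105 and 89 in the knockout and at 145, 109, 160, 103 and 145 in D489V. D489V replicate 4 was the only sample of its group inside the range of the knockout. The difference between these groups was -0.63 ± 0.18 (limma adjusted p = 0.0293), not called without knockout replicate 1 or 3 or D489V replicate 1, 3 or 5. Xaf1, which opposes the inhibitors of apoptosis, stood at 510, 480, 185, 102 and 196 in the controls, at 220, 151, 119, 122 and 113 in the knockout and at 449, 179, 491, 105 and 355 in D489V. Control replicates 1 and 2 and D489V replicates 1, 3 and 5 were high and the other samples much lower. Its knockout minus D489V difference was the lowest of the members at -0.95 ± 0.38 (limma adjusted p = 0.0918). D489V minus control was 0.14 ± 0.51 (limma adjusted p = 0.952) and turned to -0.18 without control replicate 4 and to -0.04 and -0.07 without D489V replicate 1 or 3. Bst2, the tetherin that holds budding virus at the cell surface, and Rsad2, the antiviral enzyme viperin, whose promoters are shown above, had knockout minus control differences of -0.77 ± 0.26 and -0.70 ± 0.30 (limma adjusted p = 0.302 and 0.315).

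**Figure D5:**
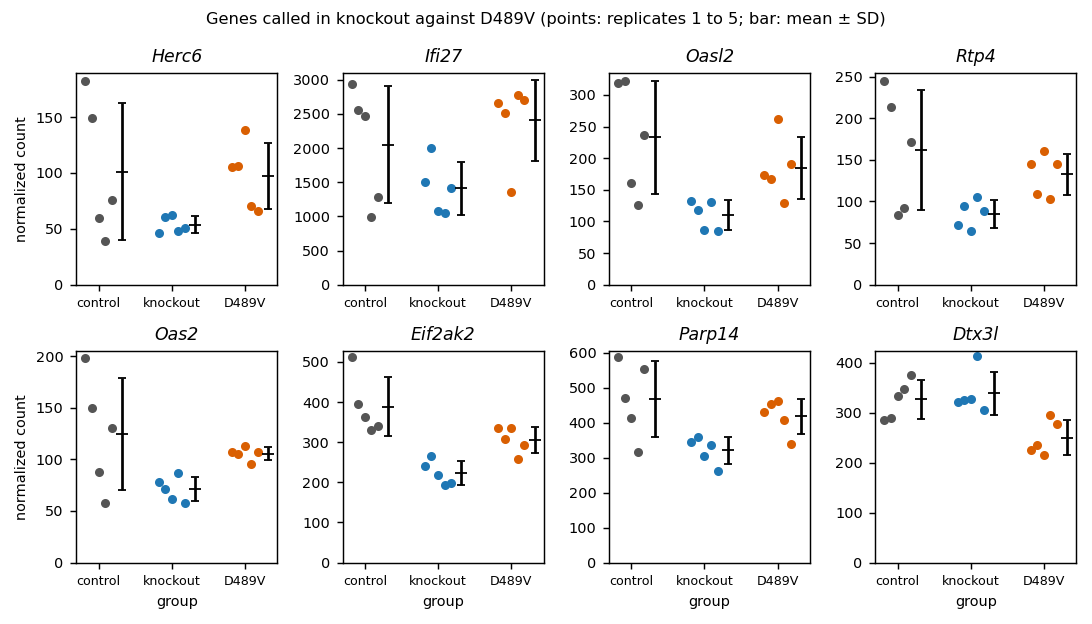
Normalized counts (linear axis from 0) of the 8 members called between the knockout and D489V, by group, with each sample as a point and the mean and SD beside them. Oas2 and Herc6 in the knockout lie below all D489V samples, Dtx3l lies above them, and the controls span both groups for most of these genes. Of all genes, 13.9% did not overlap between the knockout and D489V.

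Other genes of the pathway gave no limma call against the controls in either mutant. At an unadjusted p under 0.05, 2 of 8 receptor and kinase genes, 3 of 8 sensing genes and 2 of 12 interferon gamma GTPases were lower in the knockout than in the controls, and 2 of those GTPases were higher. Of all genes tested, 7.42% were lower and 7.65% higher. In D489V, 1 receptor or kinase gene and 2 brakes of the response were higher and 2 of 11 GTPases lower at that level. There, 5.37% of all genes were higher and 4.06% lower. Of 11 interferon genes, 9 were at 0 in all samples, and Ifnz and Ifnl3 had 1 normalized count in 1 sample each, so none could be tested. Between the knockout and D489V, where 10.5% of all genes were called higher and 10.3% lower, 3 of 8 tested receptor and kinase genes were called higher in the knockout (Ifngr2, Jak1 and Jak2) and 1 lower (Il10rb). Of 7 STAT and IRF genes outside the members, 2 were called lower (Irf1 and Irf3) and 0 higher. Among 8 genes of nucleic acid sensing, 1 was called lower (Myd88). Among 8 brakes of the response, 3 were called lower (Socs1, Socs3 and Irf2bp2) and 1 higher (Ptpn11). Il10rb and Myd88 also serve receptors of other cytokines and of microbial products, and Socs1 and Socs3 are induced by many cytokines.

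Markers of other cell types were set beside these differences. In the knockout against the controls, 0 endothelial, mural or Schwann cell markers were called (limma). At an unadjusted p under 0.05, 7 of 8 endothelial markers (median log2 difference -0.66), 5 of 7 mural cell markers (-0.31) and 4 of 6 Schwann cell markers (-0.54) were lower and 0 higher. Of all genes tested, 7.42% were lower and 7.65% higher at that level. Where 10.3% of all genes were called lower in the knockout than in D489V and 10.5% higher, all 8 endothelial markers were called lower. Their sum was 9560 to 14171 in the knockout, 15031 to 22577 in the controls and 17143 to 20765 in D489V, with none at 0 in all samples. The mural cell markers were called lower in 3 of 7 and higher in 1, with sums of 21524 to 24042 in the knockout, 22492 to 26985 in the controls and 22811 to 28628 in D489V. Markers of adipocytes (5 of 6), Schwann cells (6 of 6) and erythrocytes (5 of 5) were called lower in the knockout in the same comparison. The sums were 11540 to 19929 against 29505 to 95944 for adipocytes, 5672 to 8894 against 11310 to 45766 for Schwann cells and 3175 to 8032 against 12454 to 22120 for erythrocytes. The Schwann cell sum of 45766 was that of D489V replicate 3 alone, and the other D489V samples had 11310 to 13799. In D489V against the controls, where the members had a median of -0.18, 0 markers of these types were called (limma). Above 0 were 7 of 8 endothelial markers (median 0.06) and 6 of 7 mural cell markers (0.06). All 6 Schwann cell (0.59), 6 adipocyte (1.67) and 5 erythrocyte markers (1.22) were above 0 as well. At an unadjusted p under 0.05, 0, 1, 2, 3 and 5 of them, in that order, were higher and 0 lower. There, 5.37% of all genes were higher and 4.06% lower. Of 10 macrophage markers, 0 were called in any comparison (limma), 0 of them at an unadjusted p under 0.05, and their sum ran from 2006 to 4768 in the knockout, 2306 to 4947 in the controls and 2403 to 3927 in D489V. Siglech, a marker of plasmacytoid dendritic cells, a blood-derived source of type I interferon, was 41, 18, 17, 8 and 117 in the controls and 13, 13, 21, 77 and 46 in the knockout, highest in control replicate 5 and knockout replicate 4. In D489V it was 32, 12, 25, 23 and 12. The 8 markers of that cell type were tested in part, 4 of 8 in each comparison with the controls and 6 of 8 between the mutants. They gave 0 calls (limma), with 1 higher in D489V than in the controls and 1 lower in the knockout than in D489V at an unadjusted p under 0.05. Of all genes, 5.37% and 18.3% were so. The marker was Cox6a2 each time. Their sum of 8425 to 16009 over all samples is not informative, since most of it was Cox6a2, which muscle fibres also express. The part of these cell types in the differences of the interferon-stimulated genes was not tested.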

How the data were processed

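Poly(A) RNA sequencing of 15 mouse skeletal muscle samples (3 groups of 5) was analysed from 2 deposited tables, whose 5 control columns are identical in both. The deposited values are a score: the authors' normalized counts, rounded to whole numbers, from which reads could not be recovered. The submitters' processing notes name Trim Galore 0.6.0, cutadapt, FastQC, STAR 2.7.0e, DESeq2 1.26.0 and the build GRCm38. The counting step and the normalization method are not given in the sources used here.

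Sums per sample were 29815559 to 36489777; the raw depth is unknown, so no counting interval is given. Samples were grouped by genotype label, and no 2 samples held the same values (Spearman 0.892 to 0.932 between samples). Log2(value + 1) was tested in R 4.3.3 by the two-sided moderated test of limma 3.58.1, with an intensity trend in the prior variance, on the 10 samples of each comparison. Genes had to reach 10 in no fewer than 5 of them. P-values were adjusted by Benjamini-Hochberg over all genes tested, and called means an adjusted p under 0.05. This scale understates changes of low genes. The code was tested on simulated data.

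The members and the gene lists were chosen with earlier results of these data known. Values in every sample are given for members that were called, that did not overlap, that were among the 3 greatest rises or falls of a comparison, or that were the most abundant of a role. Other pseudocounts, filters, scalings, variance models, fits and left-out samples were tried. Promoters came from RefSeq (GRCm38.p6). Gene positions came from the mouse annotation of GRCm38. Shared 100-base windows were counted in its transcripts. 1 gene of the wider pathway is not reported here.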

Additional observations from a re-analysis of the deposited data

Results flagged for a closer look

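In 6 of 126 groups of 5 samples tested, the highest or lowest sample stood far from the rest by Dixon's test, at its 95% critical value; chance gives about 1 in 20 groups, or 6.3 here. Knockout replicate 4 was high in 3 members. It had 254 normalized counts of Trim30a, where the other knockout samples had 119 to 133, 413 of Dtx3l against 305 to 328, and 832 of Sp100 against 448 to 498. D489V replicate 3 was high in Oas1a, at 51 against 30 to 32, and low in Ifi27, at 1361 against 2508 to 2783, and in Gbp2, at 235 against 260 to 268. Knockout replicate 4 was also among the 4 samples high in lymphocyte markers, and the part of this in its values was not tested.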

How the results depend on the processing

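The counts of called members depended on the fit. With all 15 samples in 1 fit, 1 member (Eif2ak2, lower) was called in the knockout against control, as were 0.105% of all genes. The fit on 10 samples called 0 members there. Between the knockout and D489V, the fit on 15 called 2 (Eif2ak2 and Dtx3l) in place of 8. In that last comparison, adding the lymphocyte and venule marker level as a covariate left 1 call, and leaving out the 4 samples highest in those markers left 0. These settings were chosen after seeing the data. The latter kept only knockout replicates 1 and 2, so its loss of calls cannot be told apart from the loss of samples. Leaving out single samples gave 0 to 14 calls between the knockout and D489V and 0 to 0 in the other comparisons. The calls between the mutant groups, here and with the replicate block below, are given without the share of all genes called. They do not separate the members from the table as a whole. The median difference of the members ran from -0.67 to -0.41 in the knockout against control, from -0.38 to -0.0062 in D489V against control and from -0.39 to -0.29 in the knockout against D489V. The last range does not count the setting without the samples high in lymphocyte markers, where the median given above was weaker.

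Among the members with the greatest differences, followed singly under each setting, signs turned for 3. Over all 41, the number below 0 in D489V against control ran from 22 (without control replicate 1) to 39 (without control replicate 4), against 32 with all samples. The knockout minus control difference of Dtx3l was -0.0074 with upper-quartile scaling and ran from -0.021 to 0.11 when single samples were left out, and that of Oas1a ran from -0.10 to 0.28. The D489V minus control difference of Xaf1 was -0.19 with sample weights and ran from -0.18 to 0.48 when single samples were left out. The cause was not tested.

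With the replicate number as a block, 5 members were called between the knockout and D489V, and 0 and 0 in the comparisons with the controls. Correlations of same-numbered samples' deviations ran from -0.36 to 0.36, with 2 of 5 pairs over 0.1 in each comparison, so the numbers were not taken to pair the samples. Count models were planned but not run: rounding hid the step of 1 read in some samples. The mean filter of 50 leaves out the low members, so Zbp1, Mx1, Oas1a and Oasl1 have no value there. Rounding and few counts limit what can be seen in those genes.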

Other observations

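Genes induced mainly by interferon gamma showed both directions between the knockout and D489V. Of 11 tested GTPases of that class, 2 were called higher in the knockout (Iigp1 and Gbp10) and 2 lower (Gbp4 and Gbp9), where 10.5% and 10.3% of all genes were called so. Iigp1, an immunity-related GTPase of vacuole membranes, stood at 443, 419, 248, 1513 and 569 in the controls, at 2220, 574, 693, 2063 and 2628 in the knockout and at 462, 418, 928, 487 and 363 in D489V, a log2 difference of 1.45 ± 0.42 (limma adjusted p = 0.0323) between the mutant groups, which overlapped. Gbp10 stood at 31, 27, 26, 29 and 62 in the controls, at 349, 156, 52, 175 and 231 in the knockout and at 25, 37, 8, 89 and 92 in D489V. Its difference was 2.13 ± 0.63 (limma adjusted p = 0.0350) from D489V and 2.27 ± 0.44 (limma adjusted p = 0.200) from the controls. Only knockout replicate 3 fell into the range of the other groups.

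Of 14 antigen presentation genes, 3 were called lower in the knockout than in D489V (H2-K1, H2-T23 and Tap2) and 0 higher, where 20.8% of all genes were called in either direction and 10.3% lower. H2-T23, a nonclassical class I molecule, stood at 1137, 868, 152, 275 and 930 in the controls, at 423, 431, 670, 303 and 138 in the knockout and at 1093, 809, 1024, 664 and 863 in D489V. The difference was -1.33 ± 0.33 (limma adjusted p = 0.0182), and the control samples fell into 3 high and 2 low values. Both groups of genes hold close copies of each other, so counts of single members are uncertain.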
